A study of Mus musculus with 16 samples.

Results

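The comparison described here is IL-23 against vehicle in the mice whose compound vehicle was dosed by mouth. Its members are the 8 of the series' 16 RNA-seq libraries whose labels name the per os route: 4 from IL-23 mice (libraries 14, 24, 26 and 68) and 4 from vehicle mice (libraries 4, 27, 33 and 51). All 8 received a dosing vehicle at 0 mpk, that is, without compound, so they differ by label only in the agent, IL-23 or its vehicle. The other 8 libraries cross the same agents with intraperitoneal dosing, 4 to a group. The series title places the work in a mouse model of psoriasis-like dermatitis driven by IL-23. The labels give neither the tissue, the strain, the age, the number of IL-23 doses nor the day of harvest. They do not say whether libraries come from separate mice, so a p-value here sets a difference against the scatter among these libraries, which may be technical.

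IL-23 is a cytokine of dendritic cells and macrophages that acts on T cells and innate lymphoid cells and maintains their output of IL-17 and IL-22. Those cytokines in turn act on keratinocytes, which divide faster, mature incompletely and release factors that draw in neutrophils. The usual marker genes of psoriasis are set aside here, and the account covers solute carriers and channels, metabolic enzymes, receptors with their ligands, and transcription factors.

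Library totals ran from 6593017 to 14432930 counts over the 8 oral libraries. The first principal component of these 8 carried 79.9% of the variance and divided IL-23 from vehicle, with IL-23 libraries from -73.4 to -48.9 and vehicle libraries from 51.7 to 67.3. Library 28, in the intraperitoneal IL-23 group, stood apart on the second component of all 16 libraries, and a fit without it called 9768 genes in the oral comparison, against 9280 with it. Levels are given as CPM, counts scaled by library size with TMM normalisation factors. Keratinocyte markers were the most abundant of the 14 marker lists. They summed to 31753 to 41114 CPM in vehicle and 57968 to 65335 CPM in IL-23. Members went both ways, with 7 of 16 up and 4 down and a median log2 fold change of 0.23. Sebaceous gland markers summed to 20300.2 to 26684 CPM in vehicle and 9155 to 10735 CPM in IL-23, and 6 of 11 tested fell. All 20 skeletal muscle markers fell, from sums of 6526 to 10763 CPM in vehicle to 2239 to 4309 CPM in IL-23. Of 14 adipocyte markers 13 fell, with sums of 989 to 1119 CPM in vehicle and 302 to 427 CPM in IL-23, and all 13 Schwann cell and melanocyte markers fell, with sums of 796 to 1096 CPM in vehicle and 275 to 344 CPM in IL-23. Fibroblast sums were 2187 to 4201 CPM in vehicle and 1352 to 1896 CPM in IL-23, with 2 of 12 markers up and 7 down. For 8 of 12 endothelial markers the level fell, with overlapping sums of 189 to 404 CPM in vehicle and 155 to 210.3 CPM in IL-23. Cartilage sums were 682 to 815 CPM in vehicle and 249.5 to 477 CPM in IL-23, with 7 of 10 tested markers down. Neutrophil markers summed to 37.5 to 133 CPM in vehicle and 19914 to 30479.7 CPM in IL-23, with 7 of 8 tested markers up and a median log2 fold change of 3.15. S100a8 and S100a9, which inflamed keratinocytes also make, carried that sum, and the other 10 summed to 13.3 to 26.6 CPM in vehicle and 68.1 to 149.7 CPM in IL-23. Of those, Camp, Ly6g, Mpo and Ngp did not pass the count filter and together reached 0.304 to 1.096 CPM in vehicle and 0.319 to 1.396 CPM in IL-23. Macrophage and dendritic cell markers summed to 275 to 542 CPM in vehicle and 366 to 618 CPM in IL-23, with 7 of 16 up. Mast cell sums were 106 to 190.2 CPM in vehicle and 29.9 to 54.4 CPM in IL-23, with 7 of 8 tested markers down. T cell sums overlapped at 32.6 to 44.5 CPM in vehicle and 36.1 to 51.2 CPM in IL-23, with 4 of 15 tested markers up and 0 down. Hair shaft sums overlapped at 79.4 to 88.7 CPM in vehicle and 65.3 to 106 CPM in IL-23, with 1 of 5 tested markers up and 2 down, and red blood cell sums at 31.9 to 40.2 CPM in vehicle and 29.03 to 34.3 CPM in IL-23, where Hba-a1 was at 0 throughout. In bulk RNA, fewer cells of a type and less RNA per cell cannot be told apart, and neither can more cells and more RNA per cell. Keratinocyte marker sums were higher in IL-23, and their part in the rises of epithelial genes given below was not tested.

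Of 14671 genes tested, 9280 (63.3%) differed between IL-23 and vehicle by edgeR's quasi-likelihood test at a Benjamini-Hochberg adjusted p below 0.05. The calls were 4288 higher in IL-23 (29.2% of genes tested) and 4992 lower (34.0%), and 46.2% of the calls were therefore higher. With plain library sizes in place of TMM factors the split was 2942 higher and 6553 lower, or 31.0% higher, because that scaling moves the median of all genes by -0.20 on the log2 scale, so small changes are read relative to that shift. A change of at least 2-fold was called for 3059 genes (20.9%), of which 1135 were higher (7.74%) and 1924 lower (13.1%). The median log2 fold change over all genes was -0.06 and its median SE 0.14. These shares are the background for every count below. Leaving out IL-23 library 26 gave the lowest count of calls by leave-one-out, 8457.

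The IL-23 response was compared with that of the intraperitoneal libraries, which share no library with the oral ones. There 9056 genes were called (61.7%). Of the oral calls, 9168 (98.8%) had the same sign by the intraperitoneal route, and 7818 were called by both routes in the same direction, which is 84.2% of the oral and 86.3% of the intraperitoneal calls. Across genes, which are not independent replicates, the log2 fold changes of both routes had a Pearson r of 0.93 and a Spearman rho of 0.93. Not every marker list repeated. The fibroblast median was -0.85 orally and 0.01 intraperitoneally, with the same sign for 8 of 12 markers. Hair shaft medians were 0.14 and -1.29. Medians of the other marker lists kept their sign, though not always their size. The test of the difference between routes called 0 genes in edgeR (0.0% of those tested), with 796 (5.43%) at an unadjusted p below 0.05. DESeq2 called 1 gene, Rbm4, and limma-voom called 0. Of the 143 genes in the plot of both routes 142 had the same sign and 141 were also called intraperitoneally, the exceptions being Porcn (both) and Wnt4 (call only), and the smallest adjusted p of a difference among them was 0.875.

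**Figure D1:**
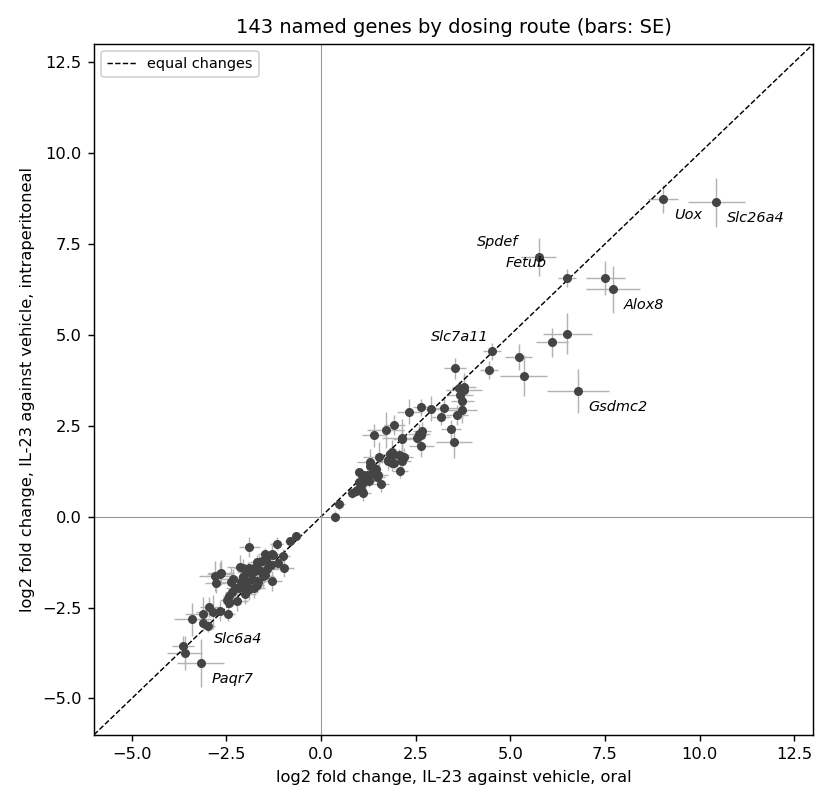
Log2 fold change of IL-23 against vehicle by oral dosing (horizontal) and intraperitoneal dosing (vertical) for the 143 named genes, with SE bars and a dashed line of equal change. All points but Porcn lie in the quadrants of equal sign, and Gsdmc2 lies farthest below the line among those labelled.

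Outside the usual psoriasis genes, the largest rises were in enzymes of purine and lipid oxidation, an anion exchanger and secreted proteins. Values are given throughout in the order of vehicle libraries 4, 27, 33 and 51 and IL-23 libraries 14, 24, 26 and 68. Of the 143 genes named, 113 were taken by a rule that required groups without overlap, so that trait is no separate result. The other 30 were added after their values were seen. Uox, which encodes urate oxidase, the enzyme that breaks down uric acid (chr3:146597149-146631483, GRCm38.p6), stood at 0.239, 0, 0.6 and 0.101 CPM in vehicle and 154, 123, 229 and 114 CPM in IL-23. All IL-23 libraries lay far above a vehicle level close to 0 (log2 fold change 9.03 ± 0.39 (SE), adjusted p = 5.65e-11, and 10.07 without vehicle library 33). Slc26a4, the anion exchanger pendrin (chr12:31519814-31560055), had no count in any vehicle library and 19.4, 13.9, 30.96 and 9.14 CPM in IL-23. The 563 counts against 0 put it at least 271-fold higher over a floor of 3 counts for the whole vehicle group (adjusted p = 6.58e-08). Its fitted log2 fold change depends on the prior count, 10.44 in edgeR and 8.49 in limma-voom, and is no bound.

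Alox8, a lipoxygenase that oxygenates arachidonic acid (chr11:69183885-69197843), stood at 2.07, 1.95, 2.8 and 1.72 CPM in vehicle and 549, 535, 440.3 and 330.2 CPM in IL-23. The IL-23 libraries ranged between 330.2 and 549 CPM and none came near the vehicle values (log2 fold change 7.72 ± 0.71 (SE), adjusted p = 1.59e-07). Lpo encodes lactoperoxidase, a secreted antimicrobial peroxidase, and went from 1.26 ± 0.957 to 104 ± 14.9 CPM (SD, n = 4; log2 fold change 6.504 ± 0.65 (SE), adjusted p = 3.58e-07). The liver-secreted protease inhibitor fetuin-B, Fetub, was at 4.29, 4.14, 4.6 and 2.64 CPM in vehicle and 413, 326, 352 and 338 CPM in IL-23. Its groups were tight and far apart (log2 fold change 6.49 ± 0.24 (SE), adjusted p = 1.49e-11). Prss27, a membrane-anchored serine protease of squamous epithelia, rose from 4.61 ± 1.49 to 318 ± 52.2 CPM (log2 fold change 6.097 ± 0.43). The chitinase-like protein gene Chil1 rose from 43.5 ± 6.74 to 1616 ± 368 CPM (5.22 ± 0.36), and Ankk1, a kinase gene beside the dopamine receptor locus, from 0.1405 ± 0.0958 to 30.3 ± 5.17 CPM (7.51 ± 0.51). Among the rises taken by the rule were 2 gasdermin C genes, members of a pore-forming family. Gsdmc rose from 6.59 ± 3.24 to 274 ± 42.03 CPM (5.35 ± 0.63) and Gsdmc2 from 0.332 ± 0.311 to 35.4 ± 5.48 CPM (6.78 ± 0.82). Other gasdermin C copies are not described here. The gasdermin C copies are nearly identical and how reads mapping to several copies were counted is not given in the sources used here, so the split between them is uncertain.

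The largest falls included flavin monooxygenase, a progestin receptor and both plasma membrane transporters of serotonin and noradrenaline. Fmo2, a flavin-containing monooxygenase, stood at 21.7, 14.2, 21.4 and 22.6 CPM in vehicle and 1.64, 2.66, 1.14 and 0.957 CPM in IL-23. Vehicle library 27 was the lowest of its group and still several times above every IL-23 library (log2 fold change -3.65 ± 0.28 (SE), adjusted p = 2.91e-08). Paqr7, a membrane progestin receptor (chr4:134496761-134510237), stood at 685, 346, 784 and 723 CPM in vehicle and 32.7, 34.3, 17.8 and 193 CPM in IL-23. IL-23 library 68 was far above the other 3, though below every vehicle library. The log2 fold change was -3.18 ± 0.62 with it (adjusted p = 0.00029) and -4.49 without it. Tspear, a gene needed for tooth and hair follicle development, fell from 5.45 ± 1.45 to 0.523 ± 0.328 CPM (-3.402 ± 0.48). Thrsp, a regulator of fatty acid synthesis in fat and liver, fell from 11.4 ± 6.26 to 1.51 ± 0.8802 CPM (-2.85 ± 0.44), and Pllp, a myelin membrane protein gene, from 8.19 ± 2.49 to 1.18 ± 0.505 CPM (-2.79 ± 0.28). Those changes came beside lower adipocyte and Schwann cell marker sums, whose part in them was not tested.

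Solute carriers move amino acids, sugars, ions and neurotransmitters across membranes, and channels and pumps set the ion gradients that many of them use. Over the 10 transporter lists, 669 genes were found and 464 passed the filter on low counts, of which 116 rose and 216 fell. Changes of at least 2-fold were called up for 47 and down for 116, with a median log2 fold change of -0.29. Of all 374 solute carrier (SLC) genes found, 261 were tested, 72 rose and 112 fell. In the plot of calls by list, potassium channels had the largest share of falls among the transporter lists, 63.6% against 34.0% over all genes.

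**Figure D2:**
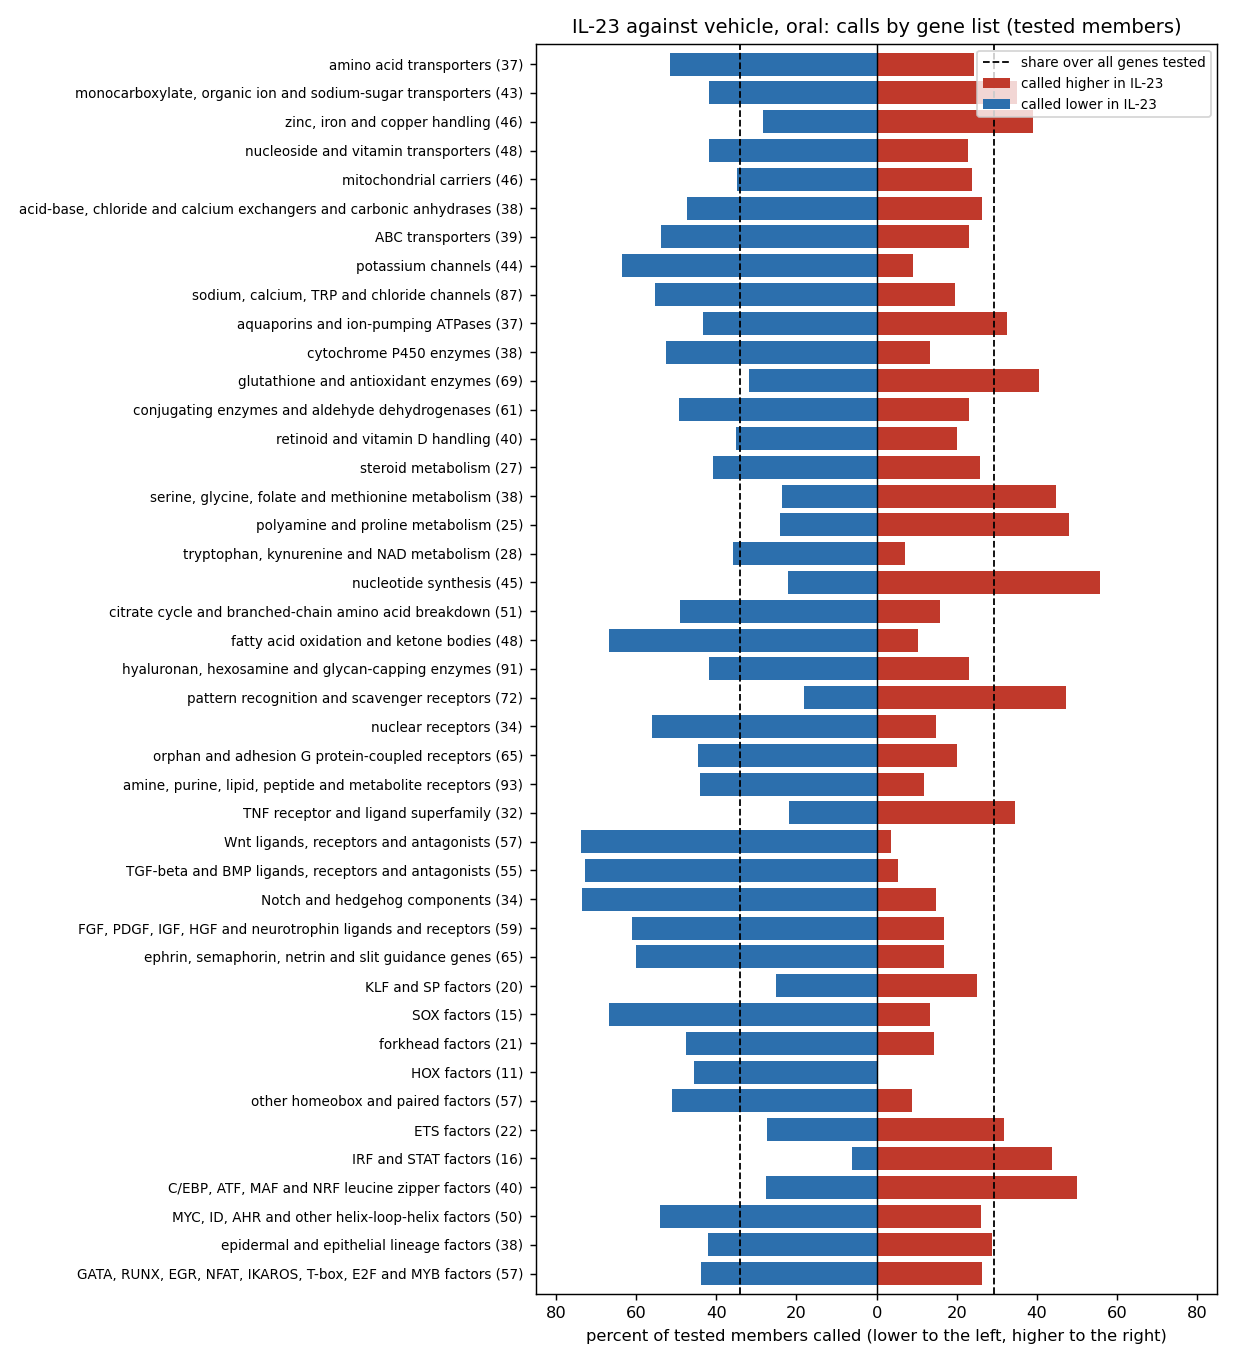
Percent of tested members called lower (left, blue) and higher (right, red) in IL-23 for each of 43 gene lists, with the number tested in brackets and dashed lines at the shares over all 14671 genes, 29.2% higher and 34.0% lower. Wnt, TGF-beta and BMP, and Notch and hedgehog lists reach 72.7% to 73.7% lower, and nucleotide synthesis reaches 55.6% higher.

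Amino acid transporters moved in both directions: 9 of 37 tested members rose and 19 fell, with a median of -0.47. Slc7a11, the cystine/glutamate exchanger that supplies cystine for glutathione (chr3:50364936-50499087), stood at 6.68, 11.3, 9 and 5.27 CPM in vehicle and 187, 173, 214 and 159 CPM in IL-23. Vehicle libraries varied more among themselves than the IL-23 libraries did, relative to their levels, and the groups lay far apart (log2 fold change 4.51 ± 0.23 (SE), adjusted p = 4.85e-10). Slc1a1, a transporter of glutamate and cysteine, stood at 7.47, 8.89, 8.27 and 11.2 CPM in vehicle and 58.8, 53.3, 68.5 and 45.9 CPM in IL-23 (log2 fold change 2.67 ± 0.24 (SE), adjusted p = 1.22e-07). The groups did not overlap. Slc7a10, an exchanger of small neutral amino acids found in fat and brain, fell from 3.48 ± 0.668 to 0.626 ± 0.388 CPM (-2.38 ± 0.41), and the glutamine transporter gene Slc38a3 from 14.5 ± 1.94 to 4.38 ± 1.23 CPM (-1.704 ± 0.21).

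The promoter of Slc7a11 is shown because its rise came together with that of Asns (asparagine synthetase), described below with the serine and folate enzymes. Both belong to the genes known to be induced through amino acid response elements when amino acids are short. The letters are the 250 bases upstream of a RefSeq start, read 5′ to 3′ (GRCm38.p6, minus strand for both genes, chr3:50443614-50443863 for Slc7a11 and chr6:7693210-7693459 for Asns). The Slc7a11 start used lies inside the gene span given above, not at its outer end, and that end was not searched. Capitals mark matches on either strand to TGATGNAA, the core of that element, and to TTCNNNGAA, the STAT form.
Slc7a11: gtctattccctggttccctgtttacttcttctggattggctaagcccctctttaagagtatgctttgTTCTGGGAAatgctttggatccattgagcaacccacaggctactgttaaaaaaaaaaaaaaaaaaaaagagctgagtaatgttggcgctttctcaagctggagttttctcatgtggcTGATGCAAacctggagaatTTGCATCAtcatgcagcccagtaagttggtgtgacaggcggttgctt
Asns: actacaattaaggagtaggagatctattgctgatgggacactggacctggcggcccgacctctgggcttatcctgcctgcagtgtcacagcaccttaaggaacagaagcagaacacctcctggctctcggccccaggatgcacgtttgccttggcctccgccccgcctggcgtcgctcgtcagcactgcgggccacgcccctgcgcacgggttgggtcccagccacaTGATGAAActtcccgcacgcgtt
Slc7a11 held the first motif at 66 to 59 and at 47 to 40 bases upstream, on opposite strands, and the second at 183 to 175 bases upstream. Asns held the first motif at 23 to 16 bases upstream. Among the 32851 RefSeq starts with 250 bases upstream, 3.45% held TGATGNAA and 7.02% held TTCNNNGAA. In all, 11 windows of 9 genes were searched for the 3 motifs used here and below. Mthfd2, described beside Asns, held none of them, nor did Slc6a4, Slc5a1, Spdef or Elf5. The Mthfd2 and Spdef windows also lay inside the spans of their genes, so the outer ends of these genes were not searched. No matches overlapped in either sequence, the motifs and genes were chosen after the values were seen, and a match is a description of the letters, not a bound site.

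Among carriers of monocarboxylates, organic ions and sodium-coupled sugars, 15 of 43 tested members rose and 18 fell, and the list's median changes sign with the scaling, so no direction is given for it. Slc5a1, the sodium-glucose cotransporter best known from the intestine (chr5:33104219-33162699), stood at 18.9, 20.3, 18.6 and 14.7 CPM in vehicle and 433, 405, 413 and 323 CPM in IL-23. Library 68 was the lowest of the IL-23 values and vehicle library 51 the lowest of its group (log2 fold change 4.44 ± 0.24 (SE), adjusted p = 8.2e-10). Slc16a7, a transporter of pyruvate and lactate, fell from 9.72 ± 0.577 to 2.89 ± 0.734 CPM (-1.76 ± 0.19), and the sulfate transporter gene Slc13a4 from 9.11 ± 0.716 to 2.517 ± 1.21 CPM (-1.81 ± 0.27). Of the sodium-coupled monoamine carriers, Slc6a4, the serotonin transporter (chr11:76998597-77032343), stood at 33.3, 32.8, 40.5 and 41.4 CPM in vehicle and 4.598, 4.23, 4.31 and 4.04 CPM in IL-23. Its IL-23 libraries lay between 4.04 and 4.60 CPM, far below every vehicle library (log2 fold change -3.11 ± 0.13 (SE), adjusted p = 4.51e-11). Slc6a2, the noradrenaline transporter (chr8:92960470-93001667), stood at 44.2, 56.5, 47.6 and 46.1 CPM in vehicle and 7.39, 4.35, 6.34 and 6.699 CPM in IL-23, again with no overlap (log2 fold change -2.98 ± 0.16 (SE), adjusted p = 8.2e-10). Mast cell and Schwann cell marker sums were lower in the same libraries, and their part in these falls was not tested.

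In the nucleoside and vitamin list 11 of 48 tested members rose and 20 fell (median -0.19). Slc28a3, a concentrative nucleoside transporter, rose from 7.41 ± 0.752 to 31.2 ± 2.57 CPM (2.06 ± 0.19) and its relative Slc28a1 fell from 7.01 ± 1.38 to 2.803 ± 1.13 CPM (-1.29 ± 0.26). Slc37a2, a sugar phosphate exchanger of the endoplasmic reticulum, rose from 15.8 ± 2.404 to 92.5 ± 6.37 CPM (2.55 ± 0.19). Among exchangers of acid, base, chloride and calcium with the carbonic anhydrases, 10 of 38 tested members rose and 18 fell (median -0.45). Slc34a2, a sodium-phosphate cotransporter, stood at 6.04, 7.43, 9.599 and 5.48 CPM in vehicle and 70.8, 47.6, 84.3 and 74.01 CPM in IL-23, with IL-23 library 24 the lowest of its group but far above vehicle (log2 fold change 3.26 ± 0.32 (SE), adjusted p = 2.98e-07). Car3, a carbonic anhydrase abundant in fat and muscle, fell from 216 ± 12.1 to 41.9 ± 10.9 CPM (-2.36 ± 0.16), beside the lower adipocyte and muscle marker sums.

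For zinc, iron and copper handling, 18 of 46 tested members rose and 13 fell. Steap1, a metalloreductase family member, rose from 1.22 ± 0.109 to 5.399 ± 0.568 CPM (2.14 ± 0.25), and the phagosomal iron and manganese transporter gene Slc11a1 rose from 3.01 ± 0.336 to 8.71 ± 4.59 CPM (1.53 ± 0.43), highest in IL-23 library 26, in which neutrophil markers were also highest. Mt4, a metallothionein of stratified epithelium, fell from 103 ± 10.9 to 25.6 ± 8.19 CPM (-2.002 ± 0.29) and the iron carrier transferrin, Trf, from 462 ± 47.3 to 164 ± 32.8 CPM (-1.49 ± 0.14). Of the mitochondrial carriers, 11 of 46 tested members rose and 16 fell, shares close to the background. Slc25a48 rose from 6.15 ± 0.848 to 14.7 ± 1.75 CPM (1.25 ± 0.16), and Slc25a36, a pyrimidine nucleotide carrier, fell from 33.1 ± 3.19 to 11.8 ± 1.83 CPM (-1.49 ± 0.18). ABC transporters, which use ATP to export lipids and drugs, fell more often than they rose: 9 of 39 tested members rose and 21 fell (median -0.46). Abcg4, a sterol exporter, rose from 6.56 ± 1.82 to 22.8 ± 5.17 CPM (1.77 ± 0.25). Abcd2, which carries very long-chain acyl-CoA into peroxisomes, fell from 21.2 ± 2.45 to 4.83 ± 1.93 CPM (-2.11 ± 0.26).

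Potassium channels set the resting potential of excitable and epithelial cells. Of 92 found, 44 were tested: 4 rose, 28 fell and 23 fell at least 2-fold (52.3%, against 13.1% over all genes), with a median of -1.06. Kcna1, a voltage-gated channel of nerve and muscle, stood at 51.2, 42.03, 49.6 and 71.4 CPM in vehicle and 8.38, 11.5, 9.898 and 9.89 CPM in IL-23 (log2 fold change -2.43 ± 0.16 (SE), adjusted p = 4.52e-09). Every IL-23 library was below the lowest vehicle library. Kcnj8, a subunit of ATP-sensitive channels in vessel wall cells, fell from 8.79 ± 3.58 to 1.36 ± 0.648 CPM (-2.67 ± 0.35), whereas Kcnk6, a leak channel, rose from 14.7 ± 0.921 to 39.5 ± 3.42 CPM (1.42 ± 0.14). Among sodium, calcium, TRP and chloride channels, 17 of 87 tested members rose and 48 fell (median -0.54). Clcn1, the chloride channel of skeletal muscle, fell from 8.37 ± 1.78 to 1.85 ± 1.15 CPM (-2.13 ± 0.35). Clca1, a secreted regulator of chloride channels with close paralogs, rose from 3.32 ± 0.678 to 20.7 ± 4.13 CPM (2.65 ± 0.34). The skeletal muscle list fell in all 20 members and the Schwann cell list in all 13, beside these channels, and their part was not tested.

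Aquaporins and ion pumps split into subunits that rose and others that fell: 12 of 37 tested members rose and 16 fell, and 8 rose and 13 fell at least 2-fold. Atp12a, the non-gastric proton-potassium pump of epithelia, stood at 7.71, 5.97, 8 and 5.48 CPM in vehicle and 83.8, 62.8, 66.6 and 84.01 CPM in IL-23 (log2 fold change 3.43 ± 0.27 (SE), adjusted p = 3.34e-08). Atp13a4, a cation pump family member, rose from 3.48 ± 0.909 to 43.4 ± 10.1 CPM (3.599 ± 0.29), and Fxyd4, a regulatory subunit of the sodium pump, from 0.857 ± 0.641 to 11.7 ± 1.47 CPM (3.78 ± 0.47). Atp1b4, a muscle-restricted relative of the sodium pump beta subunit, fell from 5.41 ± 0.899 to 0.859 ± 0.161 CPM (-2.65 ± 0.34), together with the muscle markers.

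**Figure D3:**
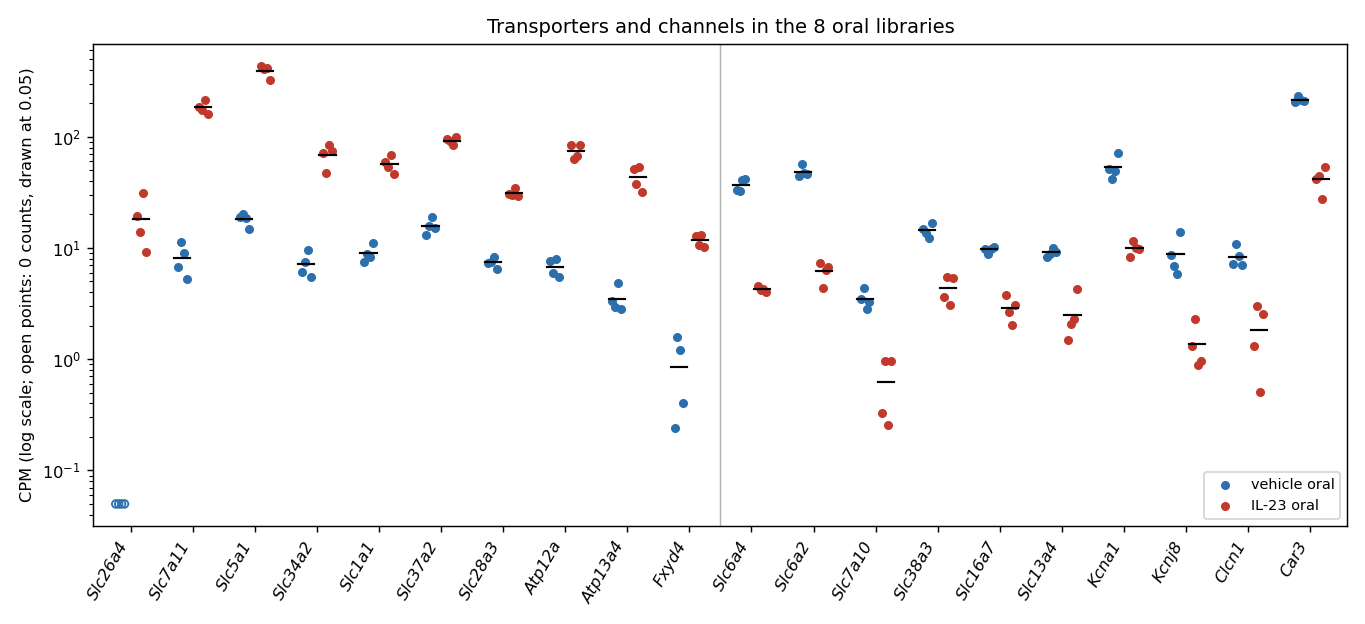
CPM on a log axis of 20 transporters, channels and pumps in each oral library (blue, 4 vehicle; red, 4 IL-23), with bars at group means and open points for 0 counts. The 10 genes left of the line rose and the 10 right of it fell. The groups of none overlap, which follows from how the genes were chosen.

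Metabolic enzymes were read from 12 lists covering 729 genes, of which 541 were tested, 144 rose and 220 fell (53 and 86 at least 2-fold). Synthesis of nucleotides had the largest share of rises. In that list 25 of 45 tested members rose and 10 fell (median 0.39), and 55.6% higher stands against 29.2% over all genes. Rrm2, a ribonucleotide reductase subunit that makes deoxynucleotides for DNA replication, stood at 37.1, 32.3, 35.7 and 27.7 CPM in vehicle and 73.2, 91.8, 93.7 and 89.01 CPM in IL-23 (log2 fold change 1.39 ± 0.12 (SE), adjusted p = 1.02e-07). Tk1, the thymidine kinase of dividing cells, rose from 28.4 ± 5.18 to 50.6 ± 3.097 CPM (0.82 ± 0.13). Upp1, a uridine phosphorylase, rose from 1.81 ± 0.618 to 9.38 ± 3.2 CPM (2.33 ± 0.33), and Samhd1, which breaks down deoxynucleotides, from 43.7 ± 4.38 to 167 ± 33.5 CPM (1.94 ± 0.27).

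Serine, glycine, folate and methionine enzymes supply carbon units for nucleotides and methyl groups, and 17 of 38 tested members rose and 9 fell. Mthfd2, a mitochondrial folate enzyme, stood at 7.71, 10.8, 8.8 and 8.72 CPM in vehicle and 25.4, 28.7, 39.5 and 32.01 CPM in IL-23 (log2 fold change 1.81 ± 0.18 (SE), adjusted p = 3.09e-07) and Shmt2, also mitochondrial, rose from 53.4 ± 5.68 to 118 ± 13.7 CPM (1.15 ± 0.103). Asns, which makes asparagine, stood at 70.1, 74.4, 66.1 and 49.1 CPM in vehicle and 144, 124, 146 and 131 CPM in IL-23 (log2 fold change 1.07 ± 0.11 (SE), adjusted p = 3.58e-07). Its groups did not overlap, and its promoter is printed above with that of Slc7a11. Tdh, threonine dehydrogenase, rose from 5.86 ± 3.22 to 43.9 ± 8.74 CPM (2.91 ± 0.35). Cbs, which diverts homocysteine toward cysteine, stood at 46.4, 39.96, 40.7 and 37.3 CPM in vehicle and 5.75, 7.97, 6.85 and 9.46 CPM in IL-23, all IL-23 libraries lying below all vehicle libraries (log2 fold change -2.43 ± 0.14 (SE), adjusted p = 2.08e-09). The list's median is 0.18 and changes sign under plain library sizes, so no direction is given for the list as a whole.

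Polyamines are small cations needed for growth, made from ornithine. In the polyamine and proline list 12 of 25 tested members rose and 6 fell (median 0.23). Odc1, the rate-limiting ornithine decarboxylase, rose from 45.4 ± 2.73 to 96.7 ± 14.2 CPM (1.09 ± 0.13), and Srm, spermidine synthase, from 46.3 ± 8.67 to 92.1 ± 14.7 CPM (0.99 ± 0.13). Smox, spermine oxidase, which breaks spermine down, stood at 25.3, 27.8, 22.9 and 17.04 CPM in vehicle and 131, 124, 176 and 128 CPM in IL-23. Library 26 was the highest in IL-23, and the other 3 also exceeded every vehicle library (log2 fold change 2.59 ± 0.29 (SE), adjusted p = 1.14e-06).

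Oxidation of fatty acids and the use of ketone bodies fell in most members: 5 of 48 tested members rose and 32 fell, 66.7% lower against 34.0% over all genes, with a median of -0.38. Ehhadh, a peroxisomal beta-oxidation enzyme, stood at 24.6, 19, 26.5 and 25.6 CPM in vehicle and 8.54, 8.94, 6.98 and 10.4 CPM in IL-23 (log2 fold change -1.45 ± 0.16 (SE), adjusted p = 1.06e-06). For the citrate cycle and branched-chain amino acid breakdown, 8 of 51 tested members rose and 25 fell, of which 3 fell at least 2-fold. In the tryptophan, kynurenine and NAD list 2 of 28 tested members rose and 10 fell, and Nmnat2, a neuronal NAD-making enzyme, fell from 2.29 ± 0.483 to 0.328 ± 0.156 CPM (-2.802 ± 0.42). Adipocyte marker sums of 989 to 1119 CPM in vehicle and 302 to 427 CPM in IL-23 moved with these lists, as did the sebaceous and muscle sums, and their part was not tested.

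Cytochrome P450 enzymes fell more often than they rose: 5 of 38 tested members rose and 20 fell (median -0.597). Among those that rose was Cyp7b1, which hydroxylates oxysterols and steroids and stood at 2.54, 3.78, 6.13 and 7.51 CPM in vehicle and 48.6, 44.4, 77.02 and 62.6 CPM in IL-23 (log2 fold change 3.54 ± 0.28 (SE), adjusted p = 3.49e-08). Cyp2w1 fell from 12.9 ± 0.977 to 1.65 ± 0.602 CPM (-2.95 ± 0.26). In steroid metabolism 7 of 27 tested members rose and 11 fell. Hsd3b6, a steroid dehydrogenase, fell from 57.3 ± 8.79 to 25.6 ± 6.18 CPM (-1.17 ± 0.17). In retinoid and vitamin D handling 8 of 40 tested members rose and 14 fell (median -0.3). Dhrs9, which oxidises retinol, rose from 1.31 ± 0.768 to 16.5 ± 1.16 CPM (3.72 ± 0.39), and Crabp2, which carries retinoic acid to its nuclear receptor, from 61.8 ± 9.65 to 173 ± 32.9 CPM (1.48 ± 0.22). Rbp4, the retinol carrier of blood, fell from 27.9 ± 1.74 to 7.49 ± 1.76 CPM (-1.897 ± 0.17).

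Among glutathione and antioxidant enzymes 28 of 69 tested members rose and 22 fell, 11 rose and 8 fell at least 2-fold, and the median changes sign with the scaling. Its glutathione transferases differed: Gsta4, which clears lipid peroxidation products, rose from 25.6 ± 8.12 to 160.5 ± 50.3 CPM (2.65 ± 0.22), while Gsta3 fell from 31.02 ± 2.702 to 9.94 ± 2.22 CPM (-1.65 ± 0.19). Alpha class transferases have near-identical copies, so their split is uncertain. Conjugating enzymes and aldehyde dehydrogenases, 61 tested, had 14 rises and 30 falls. Sult2b1, which sulfates cholesterol in maturing keratinocytes, rose from 44.6 ± 9.36 to 204 ± 25.7 CPM (2.19 ± 0.23), and the aldehyde dehydrogenase gene Aldh3b3 from 0.874 ± 0.245 to 10.4 ± 1.94 CPM (3.502 ± 0.48). Of hyaluronan, hexosamine and glycan-capping enzymes, 21 of 91 tested members rose and 38 fell (median -0.18). Has3, a hyaluronan synthase, stood at 5.01, 7.67, 11.5 and 6.796 CPM in vehicle and 71.1, 125, 148 and 87.9 CPM in IL-23 (log2 fold change 3.78 ± 0.32 (SE), adjusted p = 5.91e-08). The IL-23 libraries varied widely and still lay above all vehicle libraries. Galnt6, which starts O-linked glycans, rose from 15.9 ± 1.598 to 99.1 ± 20.3 CPM (2.63 ± 0.16), whereas Mgat3, which adds the bisecting sugar to N-linked glycans, fell from 9.68 ± 0.9298 to 2.37 ± 1.07 CPM (-2.01 ± 0.25), as did the sialyltransferase gene St8sia6 (-2.07 ± 0.28).

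Receptors and their ligands had the largest share of falls of the 4 classes. Of 860 found in 10 lists, 563 were tested, 105 rose and 288 fell, with 62 up and 174 down at least 2-fold and a median of -0.49. The largest shares of falls were in lists of developmental signals. Wnt ligands act through Frizzled receptors to stabilise beta-catenin, and in that list 2 of 57 tested members rose and 42 fell (median -0.81), with 27 falling at least 2-fold. Wnt10b, a ligand of hair follicle growth, stood at 10.97, 8.53, 11.5 and 9.63 CPM in vehicle and 0.985, 2.29, 1.27 and 1.701 CPM in IL-23 (log2 fold change -2.67 ± 0.26 (SE), adjusted p = 2.74e-07). The pathway's transcription factor Lef1 fell from 4.98 ± 1.53 to 1.28 ± 0.573 CPM (-1.93 ± 0.297), and its common targets Axin2 and Nkd2, both feedback inhibitors, both fell, Axin2 from 80.9 ± 8.33 to 36.4 ± 4.603 CPM (-1.15 ± 0.11) and Nkd2 from 22.5 ± 4.08 to 4.61 ± 1.23 CPM (-2.28 ± 0.25). The members that rose were Porcn, which acylates Wnt ligands for secretion (0.38 ± 0.15), and the ligand gene Wnt4 (0.46 ± 0.16), whose groups overlapped. Both were named after their values were seen, and neither was called by the intraperitoneal route. With plain library sizes both lost their call (adjusted p = 0.282 for Porcn and 0.121 for Wnt4). Leaving out library 14, 24, 26, 27, 33 or 51 ended the call of Porcn, and leaving out library 33 or 51 that of Wnt4.

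In the TGF-beta and BMP list 3 of 55 tested members rose and 40 fell (median -0.804). Bmp4, a BMP ligand, stood at 12.8, 15.3, 16.3 and 18.6 CPM in vehicle and 4.11, 4.47, 3.55 and 4.04 CPM in IL-23 (log2 fold change -1.96 ± 0.17 (SE), adjusted p = 7.49e-08), a group gap with no overlap. Acvr1c, a type I receptor (ALK7) abundant in fat, stood at 8.83, 9.14, 9.87 and 10.8 CPM in vehicle and 1.64, 0.966, 0.127 and 1.701 CPM in IL-23 (log2 fold change -3.12 ± 0.48 (SE), adjusted p = 2.83e-05), lowest in library 26. The BMP antagonist Grem1 fell from 4.96 ± 0.6398 to 1.12 ± 0.616 CPM (-2.09 ± 0.31). Id1, an inhibitor of differentiation that BMP signals induce in many cells, rose from 137 ± 20.96 to 406 ± 168 CPM (1.57 ± 0.22), against the direction of most of the list. In the Notch and hedgehog list 5 of 34 tested members rose and 25 fell (median -0.94). Gli1 and Ptch1, which hedgehog signals induce, both fell, Gli1 from 13.4 ± 2.49 to 4.53 ± 1.75 CPM (-1.56 ± 0.24) and Ptch1 from 20.8 ± 3.01 to 10.3 ± 2.31 CPM (-1.01 ± 0.18). Mfng, which modifies Notch, fell from 20.6 ± 2.75 to 4.93 ± 1.71 CPM (-2.04 ± 0.21), and Dlk1, a non-canonical Notch ligand of fat precursors, from 6.88 ± 2.95 to 1.66 ± 0.255 CPM (-2.05 ± 0.34). Jag1, a Notch ligand, rose from 89.6 ± 8.55 to 174 ± 27.9 CPM (0.95 ± 0.12). Fibroblast, adipocyte, Schwann cell and muscle marker sums were lower in the same libraries as these signals, and their part was not tested.

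Growth factor and neurotrophin genes were lower on balance, 10 of 59 tested members rose and 36 fell (median -0.74). Ngfr, the low-affinity receptor of all neurotrophins and a marker of Schwann cells, stood at 47.6, 39.5, 40.1 and 42.3 CPM in vehicle and 8.38, 8.45, 3.55 and 10.1 CPM in IL-23 (log2 fold change -2.47 ± 0.198 (SE), adjusted p = 4.13e-08). Ntf3, a neurotrophin gene, fell from 5.58 ± 0.536 to 1.87 ± 0.868 CPM (-1.55 ± 0.297). Of the TAM receptors, which bind to dying cells and dampen inflammation, Tyro3 rose from 61.8 ± 6.73 to 171 ± 17.3 CPM (1.46 ± 0.13) and Mertk fell from 14.6 ± 2.16 to 3.46 ± 0.731 CPM (-2.06 ± 0.27). Of guidance genes, 11 of 65 tested members rose and 39 fell. The secreted repellent gene Sema3d stood at 227, 217, 230.3 and 294 CPM in vehicle and 42.9, 44.9, 28.8 and 54.5 CPM in IL-23 (log2 fold change -2.496 ± 0.18 (SE), adjusted p = 9.82e-09). Sema4a rose from 74.6 ± 3.898 to 162 ± 16.9 CPM (1.12 ± 0.11), as did the ephrin receptor gene Epha2 (1.15 ± 0.13).

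**Figure D4:**
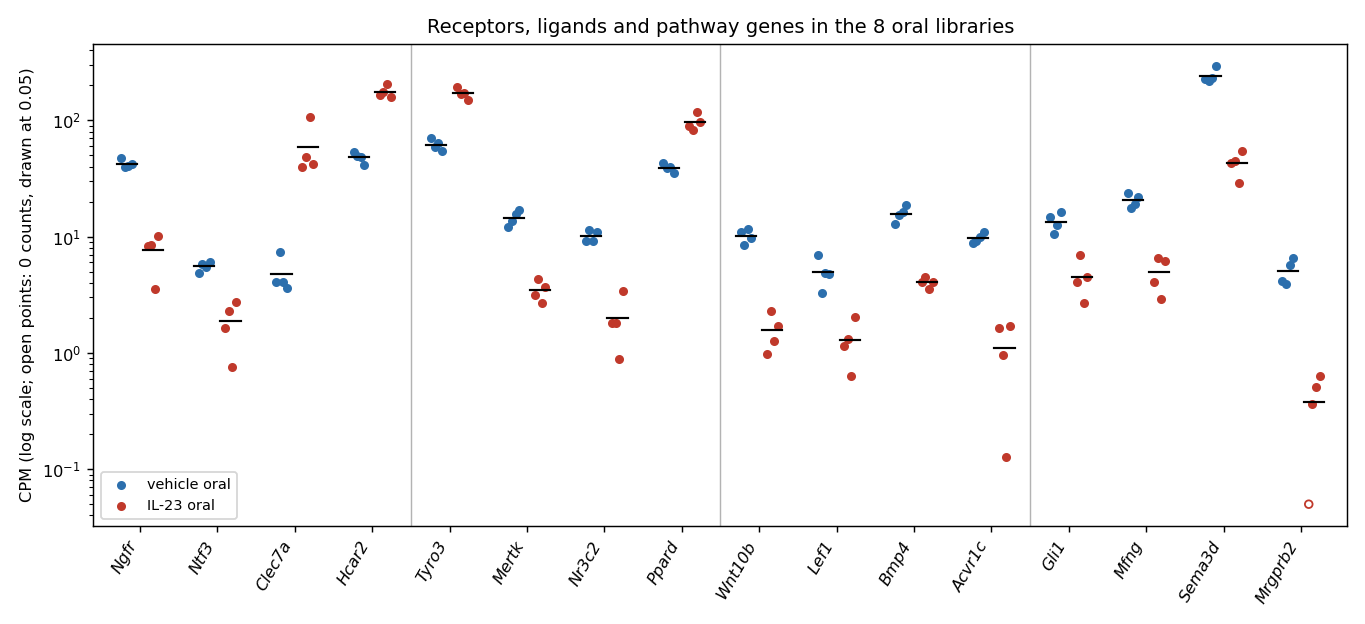
CPM on a log axis of 16 receptors, ligands and pathway genes in each oral library (blue, 4 vehicle; red, 4 IL-23), with bars at group means and an open point for 0 counts. Clec7a, Hcar2, Tyro3 and Ppard rise while the other 12 fall. The groups of none of the 16 genes overlap, which follows from how most were chosen.

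Pattern recognition and scavenger receptors, which sense microbes and damaged cells, were the receptor list with the largest share of rises: 34 of 72 tested members rose and 13 fell, and 30 rose and 8 fell at least 2-fold (41.7% up, against 7.74% over all genes). Clec7a, the beta-glucan receptor Dectin-1, stood at 4.06, 7.43, 4.07 and 3.65 CPM in vehicle and 39.7, 47.95, 107 and 41.9 CPM in IL-23. Library 26 was far the highest (log2 fold change 3.66 ± 0.36 (SE), adjusted p = 3.17e-07). Tlr5, the flagellin receptor, fell from 17.2 ± 1.79 to 3.805 ± 1.17 CPM (-2.16 ± 0.17), and so did Scara5, a ferritin receptor of fibroblast-like cells (-1.69 ± 0.2). Neutrophil marker sums without S100a8 and S100a9 were 13.3 to 26.6 CPM in vehicle and 68.1 to 149.7 CPM in IL-23, highest in library 26. Of those markers, Camp, Ly6g, Mpo and Ngp together stayed at 0.304 to 1.096 CPM in vehicle and 0.319 to 1.396 CPM in IL-23. Macrophage and dendritic cell sums overlapped at 275 to 542 CPM in vehicle and 366 to 618 CPM in IL-23, with 7 of 16 markers up. The part of either cell group in these rises was not tested. In the TNF superfamily 11 of 32 tested members rose and 7 fell. Ltb, which encodes lymphotoxin beta, rose from 0.892 ± 0.388 to 3.76 ± 1.89 CPM (2.13 ± 0.53), and Edar, the ectodysplasin receptor of hair follicles and glands, fell from 8.32 ± 1.01 to 1.75 ± 0.543 CPM (-2.21 ± 0.27).

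For receptors of amines, purines, lipids, peptides and metabolites, 11 of 93 tested members rose and 41 fell (median -0.44). Hcar2, the receptor for the ketone body beta-hydroxybutyrate and for niacin, stood at 53.1, 49.1, 48.7 and 40.98 CPM in vehicle and 165, 177, 206 and 160.0 CPM in IL-23 (log2 fold change 1.88 ± 0.16 (SE), adjusted p = 6.9e-08), and C5ar1, a complement receptor of phagocytes, rose from 2.44 ± 0.512 to 8.84 ± 5.3 CPM (1.87 ± 0.45). Orphan and adhesion receptors, of which 65 of 129 found were tested, had 13 rises and 29 falls. Gpr35 rose from 5.17 ± 0.756 to 22.6 ± 3.84 CPM (2.13 ± 0.23). The mast cell receptor gene Mrgprb2, one of a family of close copies, fell from 5.05 ± 1.24 to 0.377 ± 0.275 CPM (-3.6 ± 0.46), as did the mast cell marker sum.

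Nuclear receptors, which turn steroids, thyroid hormone, retinoids and lipids into changes of transcription, were mostly lower: 5 of 34 tested members rose and 19 fell (median -0.74). Nr3c2, the mineralocorticoid receptor, stood at 9.22, 11.3, 9.2 and 10.9 CPM in vehicle and 1.81, 1.81, 0.888 and 3.403 CPM in IL-23 (log2 fold change -2.32 ± 0.305 (SE), adjusted p = 5.88e-06), with no overlap of the groups. The glucocorticoid receptor gene Nr3c1 fell from 277 ± 30.8 to 115 ± 12.1 CPM (-1.27 ± 0.11). Ppara, an activator of fatty acid oxidation, fell from 68.9 ± 2.304 to 27.4 ± 2.92 CPM (-1.33 ± 0.11), while Ppard, a relative induced in inflamed keratinocytes, rose from 39.04 ± 3.29 to 96.9 ± 15.9 CPM (1.31 ± 0.13). The lower adipocyte, sebaceous and muscle marker sums moved with this list, and their part was not tested.

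Transcription factors were read from 11 lists with 523 genes found and 344 tested, of which 87 rose and 144 fell (36 and 61 at least 2-fold). ETS factors moved in both directions. In that list 7 of 22 tested members rose and 6 fell, and 5 rose and 0 fell at least 2-fold, while the median over the list was -0.16. The epithelial members Spdef, Elf3, Elf5 and Ehf and the myeloid member Spi1 were the ones past 2-fold. Spdef, known from secretory goblet cells, stood at 0.239, 0.122, 0 and 0.203 CPM in vehicle and 11.3, 5.797, 7.74 and 6.699 CPM in IL-23 (log2 fold change 5.75 ± 0.46 (SE), adjusted p = 3.58e-08). Elf3 stood at 2.39, 1.34, 1.6 and 1.93 CPM in vehicle and 22.8, 20.3, 30.2 and 24.5 CPM in IL-23 (log2 fold change 3.73 ± 0.302 (SE), adjusted p = 4.41e-08). Elf5 stood at 2.86, 3.04, 2.33 and 1.93 CPM in vehicle and 34.2, 32.9, 36.8 and 23.8 CPM in IL-23 (log2 fold change 3.65 ± 0.198 (SE), adjusted p = 7.8e-10), and Ehf, the most abundant of them by CPM, at 44.8, 57.7, 57.7 and 36.1 CPM in vehicle and 489, 432, 453 and 390.2 CPM in IL-23 (log2 fold change 3.17 ± 0.23 (SE), adjusted p = 1.67e-08). In none of the 4 did a vehicle library reach an IL-23 library. Spi1, the factor PU.1 of myeloid cells, rose from 8.26 ± 0.5103 to 20.2 ± 4.905 CPM (1.295 ± 0.35). It rose beside neutrophil markers and 7 of 16 macrophage and dendritic cell markers, whose part was not tested.

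The promoter of Elf3 is shown because Elf3 is known as an NF-kB target in epithelia. These are the 250 bases upstream of its RefSeq start (GRCm38.p6, chr1:135258473-135258722, minus strand, 5′ to 3′), with a match to GGGANTTCC, the NF-kB form, on either strand in capitals.
Elf3: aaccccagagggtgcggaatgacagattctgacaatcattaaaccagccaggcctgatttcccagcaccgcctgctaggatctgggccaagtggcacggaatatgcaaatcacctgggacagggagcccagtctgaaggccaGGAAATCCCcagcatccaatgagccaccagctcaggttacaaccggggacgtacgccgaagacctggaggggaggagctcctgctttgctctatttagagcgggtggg
The match lay 108 to 100 bases upstream, and 1.43% of all RefSeq starts held that motif in the same window. Neither TGATGNAA nor TTCNNNGAA was in this window. Of the other windows searched, 1 of Paqr7, which fell, also held the NF-kB form, at 210 to 202 bases upstream, and those of the ETS genes Spdef and Elf5 did not. Nothing about binding was measured.

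IRF and STAT factors, the signal-driven factors of interferons and cytokines, showed 7 rises and 1 fall among 16 tested (median 0.42). Stat3, which IL-23, IL-22 and IL-6 activate, stood at 237, 243, 239 and 236 CPM in vehicle and 617, 579.7, 627 and 526 CPM in IL-23, with tight groups (log2 fold change 1.299 ± 0.09 (SE), adjusted p = 8.67e-09). Irf1 rose from 21.6 ± 4.11 to 56.9 ± 4.84 CPM (1.404 ± 0.31). Of leucine zipper factors 20 of 40 tested members rose and 11 fell (median 0.25). Cebpd, an acute-phase factor, stood at 12.01, 12.1, 13.7 and 15.7 CPM in vehicle and 38.6, 54.95, 50.6 and 58.1 CPM in IL-23 (log2 fold change 1.92 ± 0.17 (SE), adjusted p = 1.01e-07), and Batf, needed by IL-17-producing T cells, rose from 0.745 ± 0.406 to 2.37 ± 0.273 CPM (1.71 ± 0.49). Bach2, a repressor of lymphocyte differentiation, fell from 11.3 ± 0.526 to 3.64 ± 0.679 CPM (-1.63 ± 0.17).

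KLF and SP factors were called in equal numbers, 5 up and 5 down of 20 tested. Sp6, a factor of epidermis and tooth, stood at 19.3, 19, 22.8 and 17.8 CPM in vehicle and 79.8, 81.5, 86.03 and 94.1 CPM in IL-23 (log2 fold change 2.11 ± 0.16 (SE), adjusted p = 2.4e-08), and Klf9, a glucocorticoid-responsive factor, fell from 71.9 ± 7.67 to 19.4 ± 4.37 CPM (-1.89 ± 0.17). Among epidermal and epithelial lineage factors 11 of 38 tested members rose and 16 fell, with no direction for the list since its median changes sign under plain library sizes. Grhl3, needed for the skin barrier, rose from 40.03 ± 4.01 to 146 ± 16.7 CPM (1.87 ± 0.16). Ovol1, which drives keratinocytes out of the cell cycle, stood at 45.5, 62.7, 57.1 and 42.9 CPM in vehicle and 140.4, 325, 178 and 238 CPM in IL-23, spread widely within IL-23 but without overlap (log2 fold change 2.09 ± 0.201 (SE), adjusted p = 2.37e-07). Vgll2, a cofactor of muscle and face development, fell from 6.15 ± 0.867 to 1.62 ± 0.562 CPM (-1.91 ± 0.29).

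SOX factors gave 2 rises and 10 falls among 15 tested (median -0.88), and Sox10, the defining factor of Schwann cells and melanocytes, stood at 13.3, 13.4, 11.6 and 16.1 CPM in vehicle and 4.43, 4.71, 3.93 and 4.04 CPM in IL-23 (log2 fold change -1.66 ± 0.18 (SE), adjusted p = 6.42e-07). It is also a member of the neural crest group whose marker sums fell. In the homeobox and paired list 5 of 57 tested members rose and 29 fell, 21 of them at least 2-fold lower. Irx3 rose from 24.7 ± 2.05 to 84.9 ± 3.42 CPM (1.78 ± 0.12) and Hopx, a homeodomain protein of stem and maturing keratinocytes, from 115 ± 12.9 to 242 ± 21.5 CPM (1.08 ± 0.17). Isl1 fell from 4.47 ± 0.755 to 1.17 ± 0.453 CPM (-1.897 ± 0.28). Of forkhead factors 3 of 21 tested members rose and 10 fell. Foxn1, which drives keratinocyte and hair differentiation, rose from 7.96 ± 0.779 to 17.3 ± 1.71 CPM (1.12 ± 0.21), and Foxd3, a neural crest factor, fell from 2.76 ± 1.28 to 0.797 ± 0.4297 CPM (-1.73 ± 0.37). Only 11 of 39 HOX genes found were tested, with 0 rises and 5 falls, a count that dropped to 2 or 3 in 5 of the 8 leave-one-out fits.

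Helix-loop-helix factors gave 13 rises and 27 falls among 50 tested (median -0.39). Mycn, a growth regulator of the MYC family, fell from 4.65 ± 0.391 to 1.09 ± 0.3297 CPM (-2.06 ± 0.24), and the circadian repressor gene Bhlhe41 from 16.3 ± 3.53 to 3.998 ± 2.096 CPM (-2.01 ± 0.28). In the list of GATA, RUNX, EGR, NFAT, IKAROS, T-box, E2F and MYB factors 15 of 57 tested members rose and 25 fell. The cell cycle repressors E2f7 and E2f8 both rose, E2f7 from 4.55 ± 2.24 to 13.02 ± 0.835 CPM (1.49 ± 0.28) and E2f8 from 20.9 ± 3.24 to 48.3 ± 8.07 CPM (1.2 ± 0.14). Tbx15, a factor of dermal and muscle development, stood at 83.7, 92.95, 94.1 and 94.3 CPM in vehicle and 26.9, 39.97, 29.6 and 37.4 CPM in IL-23 (log2 fold change -1.44 ± 0.15 (SE), adjusted p = 6.42e-07), and Ebf1, known from B cells and fat precursors, fell from 8.26 ± 3.23 to 2.41 ± 0.444 CPM (-1.76 ± 0.29). The fall of Tbx15 and Ebf1 came beside lower fibroblast, adipocyte and muscle sums.

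**Figure D5:**
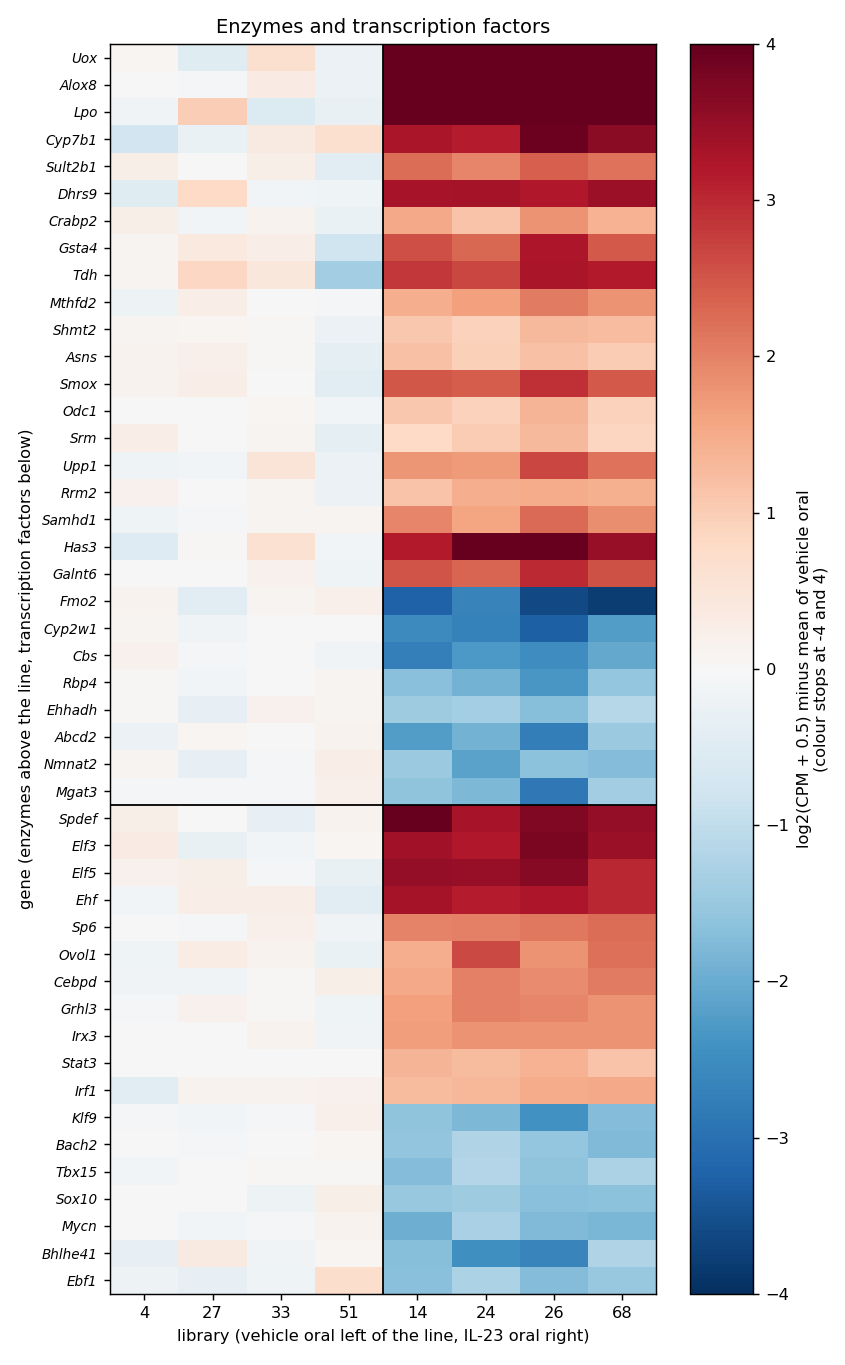
Difference of log2(CPM + 0.5) from the mean of the 4 vehicle oral libraries, in each oral library (columns), for 28 enzymes and related genes above the line and 18 transcription factors below it (rows). Colour stops at -4 and 4, and the IL-23 libraries range from -3.79 to 8.35. Each gene's 4 IL-23 libraries lie on the same side of 0, which follows from how most of the genes were chosen.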

How the data were processed

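RNA of 16 mouse libraries was prepared with a stranded total RNA kit and sequenced on an Illumina HiSeq, per the labels' protocols. The submitters' processing notes name STAR as a tool, with featureCounts of Subread 1.5.0, FastQC and the build GRCm38. How strand and multi-mapping reads were handled, and which annotation was used, is not given in the sources used here. As deposited by the authors, the values are raw, unscaled counts for 26357 genes. Of these, 5558 had no count, 6128 had counts too low to be kept and 14671 were tested.

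Counts of all 16 libraries were fitted in R 4.3.3 with edgeR 4.0.16 (TMM factors, filterByExpr with a minimum count of 10, quasi-likelihood test of 4 group means, 12 residual degrees of freedom), so the 4 groups share the estimate of spread. Tests were 2-sided, adjusted by Benjamini-Hochberg over all genes tested, with calls below 0.05. Each SE was derived from the fold change and the F statistic. Levels are CPM with TMM factors, shown as mean ± SD over 4 libraries, and bare values in brackets after a gene are log2 fold changes ± SE. CPM compare a gene between libraries, not genes of different length. Alternatives were RLE factors, plain library sizes, other filters, DESeq2 1.42.0, limma-voom (limma 3.58.1), the 8 oral libraries alone, no library 28 and leave-one-out. The fit was tested on simulated data.

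The members and lists were chosen with earlier results of these data known. The 43 lists held 2762 genes in the table, 1893 of them tested. Named genes were the 12 largest rises and falls with at least 5 CPM outside the usual psoriasis markers and predicted genes, and up to 2 rises and 2 falls of at least 2-fold per list with at least 2 CPM, called and without overlap of libraries. That gave 165 genes, of which 113 are named, and 30 more were named after their values were seen. Results for some genes are not reported here. Of 26357 gene IDs, 25275 were matched in RefSeq's GRCm38.p6 annotation, which gave positions and promoters. Reads carry no molecular identifiers, so the floor of 3 counts covers counting error only.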

Additional observations from a re-analysis of the deposited data

Results flagged for a closer look

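In 16 of 286 group and gene pairs (each of 143 named genes in each of both oral groups), the highest or lowest of the 4 libraries stood apart from the others by a gap that is a larger share of the group's range than Dixon's 95% critical value, where chance gives about 1 in 20, or 14.3 pairs. The groups of the genes in these pairs did not overlap, which for most of them was a condition of the choice. In IL-23, Paqr7 stood at 192.7 CPM in library 68 against 17.77 to 34.3 CPM in the other 3. Clec7a stood at 107.4 CPM and Smox at 176.3 CPM in library 26, both high, and Ptch1 at 6.852 CPM in that library, low. Library 14 was low for Irx3 at 79.81 CPM.

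Among vehicle libraries, library 27 was high for Lpo at 2.68 CPM and Clec7a at 7.431 CPM and low for Fmo2 at 14.25 CPM. Library 4 was high for Thrsp at 20.68 CPM and Slc22a3 at 3.022 CPM and low for Irf1 at 15.43 CPM and Tbx15 at 83.74 CPM. Library 33 was high for Upp1 at 2.733 CPM. Library 51 was high for Foxd3 at 4.666 CPM and Ebf1 at 13.08 CPM and low for Vgll2 at 4.868 CPM.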

How the results depend on the processing

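No paired analysis was possible because no replicate number is shared between libraries. The oral count of 9280 genes ranged from 8457 to 8945 with 1 oral library left out. It was 9768 without intraperitoneal library 28, 9213 with RLE factors, 9241 in DESeq2, 9282 in limma-voom and 9376 with the 8 oral libraries alone. Of 2288 values of the 143 named genes under 16 alternatives, 2278 kept their direction and their call, and 10, all of Porcn or Wnt4, kept the direction but lost the call. The named genes were chosen on these same libraries, most of them for being called without overlap. That choice largely set this count in advance, and it says nothing about other genes. The difference between routes called 1 gene in DESeq2 against 0. Medians changed sign for 5 lists, for which the cause was not tested. The glutathione list (median -0.02) gave 0.023 with RLE factors, 0.0075 without the count filter, 0.021 in DESeq2, 0.0087 with the oral libraries alone, 0.010 without library 28 and -0.026 to 0.048 by leave-one-out. The monocarboxylate list (-0.01) gave 0.029, 0.027 and -0.12 to 0.054 with RLE, DESeq2 and leave-one-out. It gave -0.15 in limma-voom, -0.295 without the count filter and -0.208 with plain library sizes. The glutathione list gave -0.215 with plain library sizes. Plain library sizes, which moved the median of all genes by -0.20, gave -0.014 for serine and glycine (median 0.18 as reported). They gave -0.14 for KLF and SP (0.05) and -0.16 for epidermal lineage factors (0.04). HOX calls went from 5 to between 2 and 6 by leave-one-out. Of 2762 list genes, 1893 passed the count filter, and the others have no test in the values reported.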

Other observations

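Genes that clear and store monoamines (serotonin, noradrenaline, dopamine) moved in different directions. Beside the falls of Slc6a4 (-3.11 ± 0.13) and Slc6a2 (-2.98 ± 0.16), Slc18a2, the vesicular monoamine transporter, fell from 6.58 ± 0.905 to 3.26 ± 1.29 CPM (log2 fold change -0.98 ± 0.25 (SE), adjusted p = 0.00254), and Slc22a3, the low-affinity extraneuronal transporter, fell from 2.65 ± 0.254 to 0.9897 ± 0.176 CPM (log2 fold change -1.42 ± 0.299 (SE), adjusted p = 0.000574). The degrading enzymes went up: Maoa stood at 56.5, 55.1, 56.5 and 61.9 CPM in vehicle and 129.7, 122, 117 and 95.6 CPM in IL-23 (log2 fold change 1.01 ± 0.09 (SE), adjusted p = 1.71e-07), and Maob rose from 25.7 ± 2.67 to 48.7 ± 7.46 CPM (log2 fold change 0.92 ± 0.13 (SE), adjusted p = 1.49e-05). By the intraperitoneal route the log2 fold changes were -2.92 for Slc6a4, -3.01 for Slc6a2, -1.42 for Slc18a2 and -1.45 for Slc22a3. They were 1.22 for Maoa and 0.7 for Maob. The 6 genes were put together after their values were seen. Mast cells hold serotonin and carry Slc18a2 and Slc6a4, and the mast cell marker sum was lower in IL-23, at 106 to 190.2 CPM in vehicle and 29.9 to 54.4 CPM in IL-23. Its part in these falls was not tested.

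Paqr5 and Paqr6 encode membrane progestin receptors, as Paqr7 does. Paqr5 fell from 53.9 ± 3.42 to 30.3 ± 2.22 CPM (-0.83 ± 0.12) and Paqr6 from 5.23 ± 1.17 to 2.09 ± 0.504 CPM (-1.31 ± 0.301), and the progesterone receptor membrane component Pgrmc1 fell from 357 ± 40.1 to 226 ± 14.8 CPM (-0.66 ± 0.102). These genes were picked after their values were seen and do not stand for the whole family. Paqr7 also stood out for its spread: by the intraperitoneal route it was at 814, 142, 494 and 424 CPM in vehicle libraries 49, 50, 59 and 67 and at 29.7, 41.1, 24.7 and 19.2 CPM in IL-23 libraries 25, 28, 31 and 61.

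The gasdermin C genes Gsdmc and Gsdmc2 separated the oral libraries more widely than the intraperitoneal ones. In intraperitoneal vehicle libraries 49, 50, 59 and 67 Gsdmc stood at 2.94, 47.6, 34.1 and 6.104 CPM, and in IL-23 libraries 25, 28, 31 and 61 at 388, 203, 326 and 367 CPM, with vehicle libraries 50 and 59 the highest and IL-23 library 28 the lowest of their groups. Gsdmc2 was at 0.327, 7.39, 5.72 and 0.2001 CPM and 41.8, 15.3, 42.4 and 40.1 CPM in the same libraries, in the same pattern. The log2 fold change of Gsdmc2 was 6.78 orally and 3.45 intraperitoneally, and the edgeR test of that difference gave an adjusted p of 0.875.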
